A study of Mus musculus with 8 samples.

Results

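The genes described here encode enzymes that remove reactive oxygen species or repair oxidised proteins, and several are classical targets of the transcription factor NRF2 (encoded by Nfe2l2). They were Sod1, Sod2, Prdx1, Prdx3, Gpx4, Gclc, Gclm, Txnrd1, Srxn1 and Hmox1, taken by name as 10 of the 20170 genes in the deposited matrix of unique molecular identifiers (UMIs). The matrix came from 3′ single-cell RNA-seq of splenic T cells in 8 libraries with 12846 cells, 2 libraries in each of 4 groups. SDHA-KO mice carried floxed Sdha alleles and a CD4-Cre transgene, and WT mice were the comparison. Sdha encodes the catalytic flavoprotein of mitochondrial complex II, which oxidises succinate. CD4-Cre acts in cells that express or once expressed Cd4, which covers most αβ T cells through their thymic stage, whereas many γδ T cells do not pass through that stage. Pan T cells were separated magnetically from spleens and cultured alone (unstimulated) or, for 48 hours, with antibodies to CD3 (5 μg/mL) and CD28 (2.5 μg/mL), and dead cells were removed. How long the unstimulated cells were cultured is not given, so effects of stimulation and of time in culture cannot be told apart. The culture medium given for all 8 samples contained β-mercaptoethanol, a thiol reductant. The labels do not say that the replicates were separate mice, so the p-values below measure the spread between these libraries, which may be technical.

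UMIs of each gene were summed per library within the CD4 and the CD8 class that the authors had assigned to clusters, and levels are given as CPM, UMIs scaled to a common sequencing depth, after TMM scaling. A single CD4 sum held between 6776027 and 34087903 UMIs from 859 to 1315 cells, and a CD8 sum between 3640136 and 22311319 UMIs from 325 to 844 cells. The quasi-likelihood test of edgeR was run over 14264 genes in CD4+ and 13095 genes in CD8+ T cells, and a gene was called at a Benjamini-Hochberg adjusted p under 0.05. Of 12823 distinct barcodes, 23 occurred in more than 1 library. In summed counts, fewer cells of a type and less RNA per cell cannot be told apart. The 8 T cell markers summed to between 1820 and 6142 CPM in every sum. Sdha itself stood at 101 and 100.1 CPM in unstimulated WT CD4+ T cells, 49.8 and 49.4 CPM in unstimulated SDHA-KO, 74.0 and 73.1 CPM in stimulated WT, and 26.5 and 26.4 CPM in stimulated SDHA-KO. In the CD8 class the corresponding Sdha levels were 91.4 and 95.7, 39.0 and 37.6, 76.2 and 74.9, and 53.3 and 50.4 CPM. All 4 SDHA-KO sums lay below all 4 WT sums within each class. Whether the 3′ tags of Sdha fall in the deleted part is not given in the sources used here.

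The CD8 class was mixed in SDHA-KO, with and without stimulation. A UMI of Trdc, the γδ T cell receptor constant chain, was found in 59.1% and 56.1% of stimulated SDHA-KO CD8 cells, against 3.67% and 4.92% in stimulated WT. Without stimulation the shares were 19.7% and 15.2% in SDHA-KO and 3.90% and 3.41% in WT. There the 8 γδ T cell markers measured summed to between 209 and 284 CPM in SDHA-KO and to 41.7 and 42.0 CPM in WT. The same markers summed to between 256 and 261 CPM in the stimulated SDHA-KO CD8 sums and to between 19.3 and 23.0 CPM in stimulated WT. B cell markers summed to between 57.8 and 307 CPM in the same SDHA-KO sums and to between 43.4 and 45.5 CPM in WT, natural killer cell markers to between 7.98 and 9.96 against 2.06 and 2.31 CPM, and dendritic cell markers to between 7.55 and 10.3 against 5.76 and 6.28 CPM. Erythroid markers reached at most 3.62 CPM and platelet markers 2.08 CPM in any stimulated sum, and the part of these other cells in the results was not tested. The stimulated comparisons of the 10 genes, and counts of a wider list, are therefore also given in strict classes. Strict CD8 cells had a Cd8a or Cd8b1 UMI and no Cd4 or Trdc UMI. Strict CD4 cells had a Cd4 UMI and no Cd8a, Cd8b1 or Trdc UMI. Comparisons within subsets and single genes of the wider list are given without this filter. In strict CD8+ T cells Sdha was at 76.2 and 74.3 CPM in stimulated WT and at 29.1 and 26.9 CPM in stimulated SDHA-KO. Mitochondrial transcripts differed as well. The share of cells with 10% or more of their UMIs on mitochondrially encoded genes was 60.9% and 59.0% in stimulated WT CD4+ T cells and 13.1% and 9.97% in stimulated SDHA-KO. For CD8+ T cells these shares were 75.7% and 70.7% in WT and 35.0% and 35.9% in SDHA-KO. Strict CD8+ T cells differed more in this share, at 75.3% and 70.5% in WT (736 and 709 cells) and 13.6% and 23.1% in SDHA-KO (169 and 147 cells). The strict and mitochondrial limits were not applied together, so a strict difference can still include the difference in mitochondrial share. Results are therefore also given for cells under 10% mitochondrial UMIs, here called low-mitochondrial cells, and levels from different cell sets were scaled separately.

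NRF2 is held in the cytoplasm and marked for degradation by KEAP1, whose reactive cysteines sense oxidants and electrophiles, and when KEAP1 is modified NRF2 enters the nucleus and binds antioxidant response elements with small MAF proteins. BACH1 occupies the same elements and represses them. The superoxide dismutases turn superoxide into hydrogen peroxide (SOD1 in the cytosol, SOD2 in mitochondria). Peroxiredoxins and glutathione peroxidases then reduce peroxides at the cost of thioredoxin and glutathione, which depend on NADPH. In activated T cells, reactive oxygen species from the respiratory chain take part in antigen receptor signalling, and thioredoxin and glutathione systems are needed for proliferation.

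In the GRCm38.p6 annotation the superoxide dismutase genes span chr16:90220762-90226333 (Sod1) and chr17:13007839-13018119 (Sod2), and the peroxiredoxin genes chr4:116685599-116700000 (Prdx1) and chr19:60864066-60874538 (Prdx3). The glutathione genes span chr10:80047166-80056439 (Gpx4), chr9:77754535-77794489 (Gclc) and chr3:122245487-122267215 (Gclm). The others span chr10:82833951-82897724 (Txnrd1), chr2:152105524-152111376 (Srxn1) and chr8:75093618-75100593 (Hmox1).

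Promoter sequence is shown for the members in which a search of the RefSeq windows of assembly GRCm38.p6 found the core of the antioxidant response element, or the closely similar AP-1 motif bound by FOS and JUN proteins. Windows for 8 of the 10 members were matched, 13 windows in all because some genes have several start sites. No window was matched for Gclc or Hmox1, so these were not searched. The core, TGACNNNGC on either strand, was present in the 250 bases before the start site in 4 of the 13 member windows and in 3338 of 32851 windows of all genes (10.2%). TGAGTCA, the AP-1 motif on either strand, was present in 2 of the 13 member windows and in 1466 of all windows (4.46%). A match describes the letters of the window and not a bound site. The stretches below are on the forward strand, 5′ to 3′, with the motifs in capitals. Those of Sod1 (chr16:90220686-90220734), Gclm (chr3:122245403-122245451) and a start site of Txnrd1 (chr10:82859094-82859142) hold the core, read on the reverse strand, 56, 134 and 92 bases before the start. The stretch of Prdx1 (chr4:116685349-116685494) holds AP-1 motifs 237 and 131 bases before the start, the nearer of which overlaps a response element core at 133 bases. In Srxn1 (chr2:152105402-152105505) AP-1 motifs lie 102 and 45 bases before the start.
Sod1: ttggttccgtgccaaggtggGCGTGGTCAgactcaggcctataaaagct
Gclm: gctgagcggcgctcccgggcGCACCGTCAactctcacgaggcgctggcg
Txnrd1: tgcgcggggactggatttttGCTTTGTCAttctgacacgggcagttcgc
Prdx1: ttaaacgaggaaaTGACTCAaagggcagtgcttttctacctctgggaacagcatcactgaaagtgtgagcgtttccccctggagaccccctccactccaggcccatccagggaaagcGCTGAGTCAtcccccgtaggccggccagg
Srxn1: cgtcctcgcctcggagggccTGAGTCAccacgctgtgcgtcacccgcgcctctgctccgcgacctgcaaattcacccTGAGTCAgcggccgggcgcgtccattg

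Without stimulation, few genes of any kind were called between SDHA-KO and WT, and none of the 10 members was among them. In CD4+ T cells 0 of 10 were called, where 0.526% of all genes tested were called higher and 0.575% lower in SDHA-KO. At an unadjusted p under 0.05, edgeR passed 2 of them, Gclm (log2 fold change 0.25, adjusted p = 0.308) and Hmox1 (1.28, adjusted p = 0.297). Among CD8+ T cells 0 were called, where 0.283% of all genes were called higher and 0.664% lower, and 0 passed an unadjusted p of 0.05. DESeq2 and limma also called 0 in both classes. The member median of the log2 fold change was 0.06 in CD4+ and −0.03 in CD8+ T cells, against 0.03 and 0.00 over all genes tested. Hmox1, which degrades haem to biliverdin, iron and carbon monoxide, was counted only 2 and 5 times in the unstimulated WT CD4 sums and 16 and 10 times in the SDHA-KO sums. The SDHA-KO UMIs sat in few cells, with up to 8 and 7 in 1 cell, while no WT cell had more than 1. Neutrophil markers summed to 41.0 CPM in unstimulated SDHA-KO CD4 replicate 1 and to 0 in replicate 2. The 10 monocyte and macrophage markers measured summed to 3.37 and 1.70 CPM there, against 4.17 and 2.55 CPM in WT. Of these markers 0 and 7 had no UMI in the SDHA-KO sums, against 6 and 7 in WT. The part of such cells in the Hmox1 counts was not tested.

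**Figure D1:**
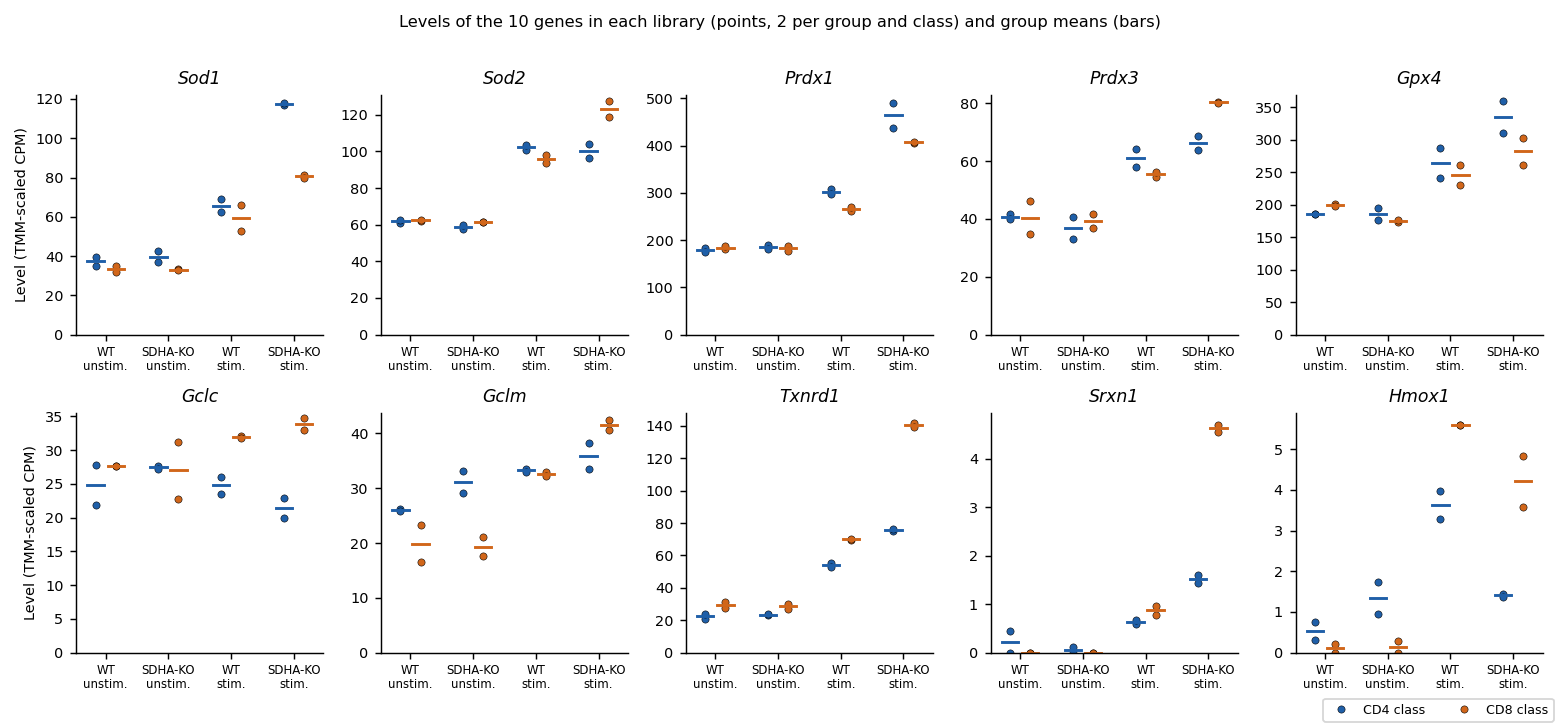
TMM-scaled CPM of the 10 genes in each library, with a point for each of the 2 libraries per group and a bar at the group mean, CD4 in blue and CD8 in orange. Txnrd1 in CD8+ T cells lies between 27.2 and 31.0 CPM in the 4 unstimulated libraries, at 69.6 and 70.2 CPM in stimulated WT and at 142 and 139 CPM in stimulated SDHA-KO.

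Stimulation raised most of these genes in WT cells. In WT CD4+ T cells 8 of 10 were called higher and 0 lower after 48 hours, beside 36.2% of all genes called higher and 30.1% lower. In WT CD8+ T cells 9 were called higher and 0 lower, beside 35.5% and 30.3% of all genes. The largest rise among members with more than a few UMIs in unstimulated cells was that of Txnrd1, the cytosolic reductase that recharges thioredoxin with NADPH. Its level went from 21.0 and 23.8 to 55.6 and 53.0 CPM in CD4+ (log2 fold change 1.27) and from 27.4 and 31.0 to 69.6 and 70.2 CPM in CD8+ T cells (1.25). Prdx1, the main cytosolic peroxiredoxin, went from 184 and 176 to 308 and 297 CPM in CD4+ (0.75) and from 181 and 187 to 261 and 271 CPM in CD8+ T cells (0.53). In neither class did the WT libraries of the 2 states overlap for Txnrd1 or Prdx1. Sod1 rose by 0.81 and 0.84, Sod2 by 0.72 and 0.62, and Prdx3, the mitochondrial peroxiredoxin, by 0.58 and 0.44 in CD4+ and CD8+ T cells. Gpx4, which reduces lipid peroxides in membranes, rose by 0.51 and 0.30.

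The subunits of glutamate-cysteine ligase, the enzyme that limits glutathione synthesis, did not behave alike in WT cells. Gclm, the modifier subunit, rose by 0.35 in CD4+ and 0.69 in CD8+ T cells on the log2 scale. Gclc, the catalytic subunit, was at 21.8 and 27.9 CPM in unstimulated and 26.1 and 23.5 CPM in stimulated WT CD4+ T cells, so the libraries overlapped (log2 fold change −0.01, adjusted p = 0.973). In WT CD8+ T cells Gclc was at 27.7 and 27.7 CPM before and 32.1 and 31.8 CPM after stimulation (0.21, adjusted p = 0.165). The CD4 call of Gclm was lost without any 1 of the 4 WT libraries (adjusted p between 0.0515 and 0.0716). The CD8 call of Prdx3 was lost without unstimulated WT replicate 1 (0.29, adjusted p = 0.0609), and that of Gpx4 without stimulated WT replicate 2 (0.21, 0.0996) or unstimulated WT replicate 2 (0.30, 0.0731).

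Srxn1, which reduces overoxidised peroxiredoxins, and Hmox1 were nearly absent before stimulation, so their change is given as a ratio from summed UMIs. The UMIs of each group were divided by its library totals alone, without TMM factors. These ratios are therefore not on the scale of the TMM-based changes. Library totals alone gave a higher median stimulation change over all genes, as described below. The 95% counting interval covers counting error only. Srxn1 was counted 0 and 3 times in unstimulated and 16 and 21 times in stimulated WT CD4 sums, a ratio of 3.19 (1.01 to 16.2). In SDHA-KO CD4+ T cells it went from 1 and 0 to 49 and 53 UMIs (34.8, 6.10 to 1387). No Srxn1 UMI was found in any unstimulated CD8 sum, and with 3 counts per group as the limit that a count of 0 allows, stimulated cells were at least 3.25-fold higher in WT and at least 12.6-fold higher in SDHA-KO. Hmox1 rose 7.75-fold (3.70 to 19.5) in WT CD4+ T cells and 62.4-fold (11.1 to 2474) in WT CD8+ T cells. In SDHA-KO CD4+ T cells its ratio was 1.25 (0.800 to 2.00) and in SDHA-KO CD8+ T cells 35.2 (6.23 to 1400).

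In SDHA-KO cells the stimulated state was compared with its own unstimulated libraries. The share of SDHA-KO CD8 cells with a Trdc UMI was 19.7% and 15.2% in the unstimulated and 59.1% and 56.1% in the stimulated libraries. The part of this in the CD8 changes was not tested. Among CD4+ T cells 7 of 10 genes were called higher and 1 lower, beside 36.6% of all genes called higher and 33.2% lower, and in CD8+ T cells 10 were called higher, beside 37.2% higher and 30.9% lower. Txnrd1 rose by 1.69 in CD4+ and by 2.30 (SE 0.0948) in CD8+ T cells on the log2 scale, Prdx1 by 1.33 and 1.16, and Sod1 by 1.57 and 1.28. Gclc fell in SDHA-KO CD4+ T cells (−0.36, adjusted p = 0.0223), from 27.7 and 27.3 to 19.9 and 23.0 CPM, and rose in SDHA-KO CD8+ T cells (0.33, adjusted p = 0.0438). The CD4 call of Gclc was lost without stimulated SDHA-KO replicate 1 (−0.25) or unstimulated SDHA-KO replicate 1 (−0.32) or 2 (−0.34), and with library totals alone in place of TMM factors (−0.13, adjusted p = 0.354). The CD8 call was lost without 7 of the 8 libraries, with values between 0.13 and 0.35, the lowest without unstimulated SDHA-KO replicate 2. Gclm in CD4+ T cells was not called (0.21, adjusted p = 0.0777), and was with library totals alone (0.43).

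These counts depended on the scaling. With library totals alone, the share of all genes called higher and lower was 43.9% and 23.2% in WT CD4+, 52.8% and 17.0% in WT CD8+, 43.8% and 25.9% in SDHA-KO CD4+ and 45.5% and 23.1% in SDHA-KO CD8+ T cells. The median over all genes then stood at 0.30, 0.57, 0.26 and 0.39, against 0.08, 0.09, 0.03 and 0.10 with TMM, in the same order. The members called higher then numbered 8, 10, 8 and 10, with 0 lower in each. The member median, with TMM, was 0.74 in WT and 0.85 in SDHA-KO CD4+ T cells and 0.66 and 1.13 in CD8+ T cells.

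**Figure D2:**
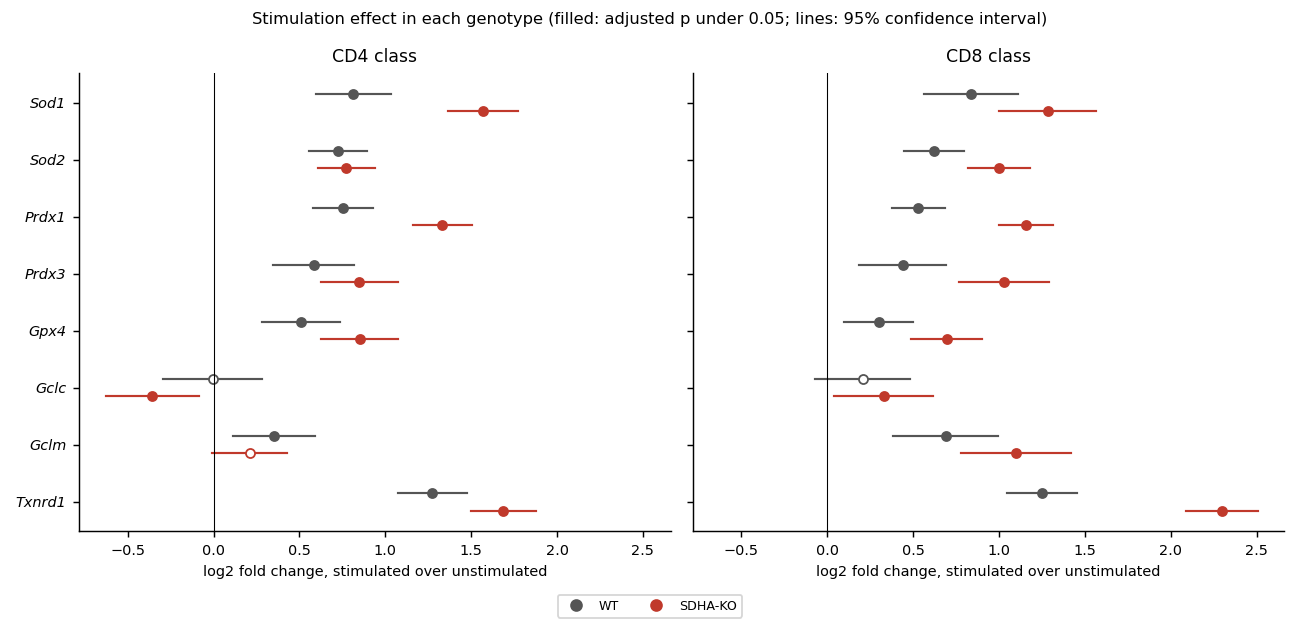
Log2 fold change, stimulated over unstimulated, with 95% confidence intervals for 8 genes in WT (grey) and SDHA-KO (red), CD4 and CD8 in separate panels, filled where the adjusted p was under 0.05. Txnrd1 in CD8+ T cells shows the widest gap, at 1.25 in WT and 2.30 in SDHA-KO, while Gclc in WT CD4+ T cells lies at −0.01.

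After stimulation, many genes of all kinds were called between SDHA-KO and WT cells, and most of the 10 members were among them. Among CD4+ T cells 5 of 10 were called higher and 1 lower in SDHA-KO, beside 22.7% of all genes called higher and 20.5% lower. For CD8+ T cells 7 were called higher and 0 lower, beside 26.8% and 23.5% of all genes. The member median was 0.23 in CD4+ and 0.40 in CD8+ T cells, against −0.00 and −0.01 over all genes tested. Txnrd1, Prdx1, Sod1 and Srxn1 were called higher in both classes, and Hmox1 was called lower in CD4+ T cells.

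Txnrd1 stood at 55.6 and 53.0 CPM in stimulated WT and at 75.3 and 76.5 CPM in stimulated SDHA-KO CD4+ T cells, a 1.40-fold difference (log2 fold change 0.48, SE 0.0742, adjusted p = 0.000406). The CD8 libraries held Txnrd1 at 69.6 and 70.2 CPM in WT and 142 and 139 CPM in SDHA-KO, a 2.01-fold difference (1.01, SE 0.0701, adjusted p = 1.73e-06). Both SDHA-KO libraries were above both WT libraries in each class. In low-mitochondrial cells Txnrd1 was at 62.0 and 58.3 against 74.1 and 74.5 CPM in CD4+ (0.30, adjusted p = 0.0114) and at 84.1 and 79.9 against 142 and 139.5 CPM in CD8+ T cells (0.78, adjusted p = 2.56e-05). Without stimulated WT replicate 2 the CD4 call of Txnrd1 in low-mitochondrial cells was lost (0.26, adjusted p = 0.101). In cells of 10% or more mitochondrial UMIs the CD8 difference was 0.94 (adjusted p = 0.000490) and the CD4 difference 0.39 (adjusted p = 0.0585). In strict CD8+ T cells the levels were 68.9 and 68.6 CPM in WT and 88.2 and 83.6 CPM in SDHA-KO, so the difference was called at 0.32 (adjusted p = 0.00583) in place of 1.01. The CD4 difference in strict cells was 0.43.

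Srxn1 was at 0.770 and 0.973 CPM (19 and 25 UMIs) in stimulated WT CD8 sums and at 4.56 and 4.70 CPM (97 and 76 UMIs) in SDHA-KO, a 5.26-fold difference (log2 fold change 2.39, SE 0.328, adjusted p = 0.000285). This was the largest difference between stimulated SDHA-KO and WT among the 10 genes in either class. It was of like size in low-mitochondrial CD8+ T cells (2.19, adjusted p = 0.00126) and in strict CD8+ T cells (2.44, adjusted p = 0.000510), where WT stood at 0.731 and 0.820 CPM and SDHA-KO at 3.80 and 4.81 CPM. The CD4 level of Srxn1 was 0.584 and 0.682 CPM in WT and 1.59 and 1.43 CPM in SDHA-KO (1.25, SE 0.460, adjusted p = 0.0476). The SDHA-KO libraries were above the WT libraries there too, but the CD4 call was lost in low-mitochondrial cells (1.14, adjusted p = 0.110), in strict cells (1.25, 0.0695), with the replicate block (1.25, 0.0565), under DESeq2 (1.27, 0.279) and without any of 6 libraries, the 4 stimulated ones and both unstimulated SDHA-KO ones (1.15 to 1.37, adjusted p between 0.0506 and 0.221).

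Among the peroxiredoxins, Prdx1 was at 308 and 297 CPM in WT and 438 and 491 CPM in SDHA-KO CD4+ T cells, 1.53-fold higher in SDHA-KO (0.62, SE 0.0754, adjusted p = 8.68e-05). The CD8 level of Prdx1 was 261 and 271 CPM in WT and 406 and 408 CPM in SDHA-KO, also 1.53-fold higher (0.62, SE 0.0652, adjusted p = 2.19e-05). No WT library reached an SDHA-KO library. In low-mitochondrial cells the difference in Prdx1 was smaller, 0.24 in CD4+ (406 and 383 against 441 and 488 CPM, adjusted p = 0.0293) and 0.20 in CD8+ T cells (385 and 368 against 432 and 433 CPM, adjusted p = 0.0283). These low-mitochondrial calls were lost without stimulated SDHA-KO replicate 2 in either class (0.16 and 0.21), without stimulated WT replicate 2 in either class (0.20 and 0.17), without stimulated WT replicate 1 in CD4+ (0.28) and without stimulated SDHA-KO replicate 1 in CD8+ T cells (0.21). In cells of 10% or more mitochondrial UMIs Prdx1 was called higher in SDHA-KO in both classes (0.36 and 0.31). Strict classes gave 0.61 in CD4+ and 0.46 in CD8+ T cells, both called.

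Prdx3 differed between the classes. Its CD4 level was 57.9 and 64.1 CPM in WT and 63.8 and 68.7 CPM in SDHA-KO, where the libraries overlapped (0.12, adjusted p = 0.322). The CD8 level was 54.7 and 56.4 CPM in WT and 80.5 and 80.2 CPM in SDHA-KO, 1.45-fold higher (0.53, SE 0.0935, adjusted p = 0.000686). In low-mitochondrial CD8+ T cells the difference was 0.07 (adjusted p = 0.617), and in strict CD8+ T cells 0.49, which was called.

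Of the superoxide dismutases, Sod1 was higher in SDHA-KO in both classes. Its CD4 levels were 62.5 and 68.9 CPM in WT and 117 and 118 CPM in SDHA-KO, 1.79-fold higher (0.84, SE 0.0847, adjusted p = 2.56e-05). The CD8 levels were 52.8 and 66.0 CPM in WT and 81.4 and 79.7 CPM in SDHA-KO, 1.36-fold higher (0.44, SE 0.0980, adjusted p = 0.00319). The libraries did not overlap in either class, and the 2 WT CD8 libraries lay farther apart than the 2 SDHA-KO ones. Without stimulated WT replicate 1 the CD8 call of Sod1 was lost (0.27, adjusted p = 0.0516). In low-mitochondrial cells the CD4 difference was 0.50 (79.1 and 86.7 against 118 and 116 CPM, adjusted p = 0.00121) and the CD8 difference 0.06 (74.9 and 88.4 against 86.5 and 83.8 CPM, adjusted p = 0.640). In strict CD8+ T cells the Sod1 levels were 52.6 and 65.0 CPM in WT and 95.6 and 91.3 CPM in SDHA-KO, and the difference of 0.67 was called.

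Sod2 was at 101 and 104 CPM in WT and 96.4 and 104 CPM in SDHA-KO CD4+ T cells, where the libraries overlapped (−0.03, adjusted p = 0.778). The CD8 level of Sod2 was 93.9 and 98.3 CPM in WT and 119 and 127 CPM in SDHA-KO, 1.28-fold higher (0.36, SE 0.0678, adjusted p = 0.00118). Both findings depended on the cells used. In low-mitochondrial CD4+ T cells Sod2 was called lower in SDHA-KO (126 and 128 against 96.3 and 103 CPM, −0.35, adjusted p = 0.00264), and it stayed called without any 1 stimulated library. In low-mitochondrial CD8+ T cells the difference was 0.01 (adjusted p = 0.909), and in strict CD8+ T cells 0.17 (adjusted p = 0.0809).

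Gpx4 was at 240.2 and 288 CPM in WT and 359 and 311 CPM in SDHA-KO CD4+ T cells (0.34, SE 0.0990, adjusted p = 0.0163), a call that was lost without stimulated SDHA-KO replicate 1 (0.25, adjusted p = 0.0835) or stimulated WT replicate 1 (0.23, 0.150). The CD8 level of Gpx4 was 229.6 and 261 CPM in WT and 302 and 261 CPM in SDHA-KO, where the second library of each genotype was nearly level (0.20, 95% interval 0.01 to 0.39, adjusted p = 0.0715). Among low-mitochondrial cells the direction turned, to −0.04 in CD4+ (adjusted p = 0.770) and to −0.24 in CD8+ T cells (350.4 and 365 against 325 and 282 CPM, adjusted p = 0.0287). The CD8 call in low-mitochondrial cells held without stimulated SDHA-KO replicate 1 (−0.34) and was lost without any other stimulated library (−0.25 to −0.13).

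For glutathione synthesis, Gclc was at 26.1 and 23.5 CPM in WT and 19.9 and 23.0 CPM in SDHA-KO CD4+ T cells (−0.21, adjusted p = 0.165), and at 32.1 and 31.8 against 34.7 and 33.0 CPM in CD8+ T cells (0.08, adjusted p = 0.514). Gclm was at 33.5 and 32.9 CPM in WT and 33.6 and 38.2 CPM in SDHA-KO CD4+ T cells (0.11, adjusted p = 0.347). For CD8+ T cells Gclm was at 32.9 and 32.2 CPM in WT and 42.4 and 40.7 CPM in SDHA-KO, 1.28-fold higher (0.35, SE 0.105, adjusted p = 0.0160). That call of Gclm was lost in low-mitochondrial cells (0.01, adjusted p = 0.978), in strict cells (0.18, 0.303) and without stimulated SDHA-KO replicate 1 (0.31, 0.0524) or stimulated WT replicate 1 (0.35, 0.0776) or 2 (0.32, 0.104).

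Hmox1 was the 1 member called lower in stimulated SDHA-KO cells. Its CD4 level was 3.98 and 3.28 CPM (109 and 101 UMIs) in stimulated WT and 1.43 and 1.38 CPM (44 and 51 UMIs) in stimulated SDHA-KO, at 0.389 of the WT level (−1.36, SE 0.292, adjusted p = 0.00321). Low-mitochondrial CD4+ T cells gave 4.88 and 3.96 CPM in WT and 1.40 and 1.38 CPM in SDHA-KO (−1.66, adjusted p = 0.00186), and strict CD4+ T cells gave −1.55 (adjusted p = 0.00370). In the CD8 class Hmox1 was at 5.59 and 5.605 CPM in WT and 4.84 and 3.59 CPM in SDHA-KO (−0.40, 95% interval −0.94 to 0.15, adjusted p = 0.203). It was called lower in low-mitochondrial CD8+ T cells (−0.74, adjusted p = 0.0464), a call lost without any 1 stimulated library (−0.94 to −0.56), and in strict CD8+ T cells, where WT stood at 5.39 and 5.24 CPM and SDHA-KO at 2.34 and 1.96 CPM (−1.29, adjusted p = 0.00582). The 10 monocyte and macrophage markers measured, of cells rich in Hmox1, summed to between 1.98 and 2.67 CPM in stimulated WT CD4 sums and to between 4.98 and 6.25 CPM in SDHA-KO. Most of that sum was Cd68 (2.34 and 1.66 against 5.56 and 4.62 CPM), while Csf1r was between 0.189 and 0.228 CPM and Lyz2, C1qa and C1qb were at 0 in the stimulated CD4 sums, and the part of such cells in the Hmox1 difference was not tested.

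**Figure D3:**
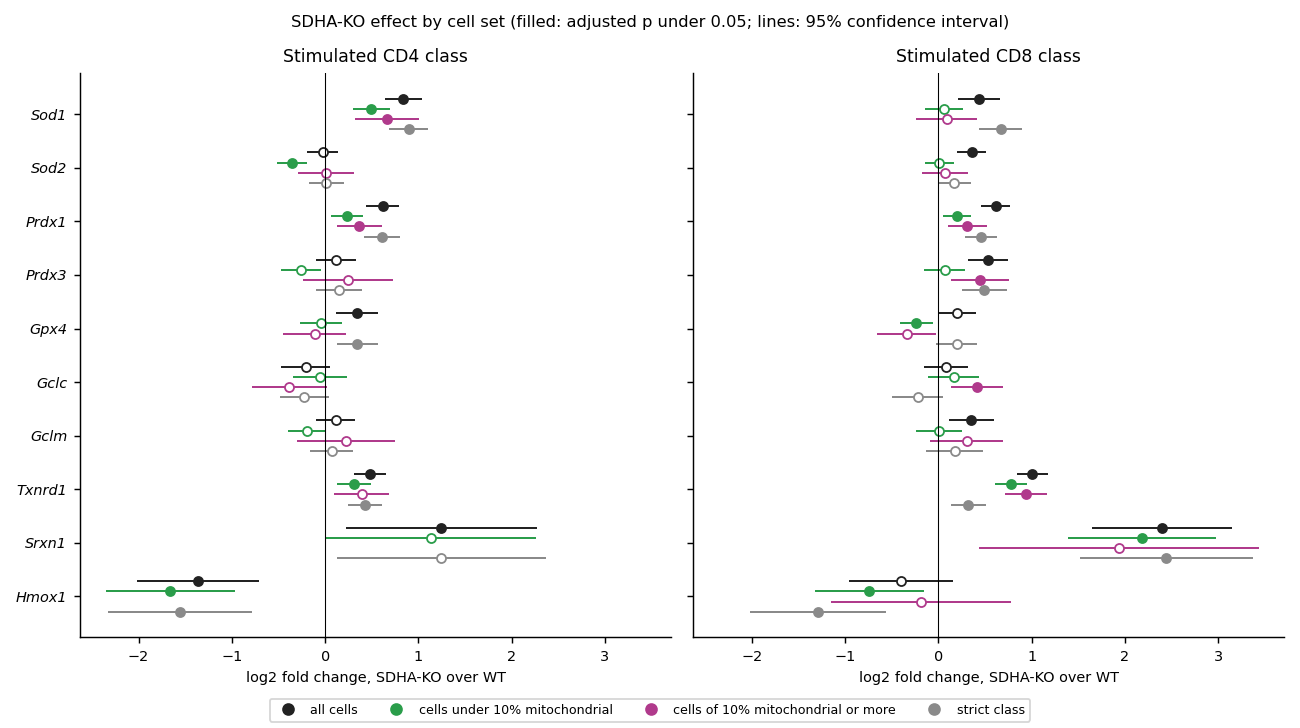
Log2 fold change, stimulated SDHA-KO over stimulated WT, with 95% confidence intervals for the 10 genes in 4 cell sets that were scaled separately (all cells, cells under 10% mitochondrial UMIs, cells of 10% or more, and strict classes), CD4 and CD8 in separate panels. Txnrd1 in CD8+ T cells moves from 1.01 in all cells to 0.32 in strict cells, Sod1 in CD8+ T cells from 0.44 to 0.06 in low-mitochondrial cells, and Hmox1 in CD4+ T cells stays between −1.66 and −1.36 in the 3 sets where it was tested.

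Across the whole set, low-mitochondrial CD4+ T cells had 3 members called higher (Sod1, Prdx1 and Txnrd1) and 2 lower (Sod2 and Hmox1), beside 16% of all genes called higher and 16.7% lower. Low-mitochondrial CD8+ T cells also had 3 called higher (Prdx1, Txnrd1 and Srxn1) and 2 lower (Gpx4 and Hmox1), beside 18.4% and 17.0% of all genes. The member medians there were −0.05 and 0.06, against 0.00 and −0.01 over all genes. In strict classes 4 members were called higher and 1 lower in CD4+ (21.2% and 19.8% of all genes) and 5 higher and 1 lower in CD8+ T cells (25% and 24.4%), with member medians of 0.25 and 0.26. The low-mitochondrial cells differed in depth, with a median of 59713.5 and 59710.5 UMIs per stimulated WT CD4 cell against 26637.5 and 26960.5 in SDHA-KO, and 64638 and 64273 against 47146.5 and 45781.5 per CD8 cell, and the part of depth in the differences was not tested. Of the low-mitochondrial stimulated SDHA-KO CD8 cells, 50.3% and 49.2% still had a Trdc UMI.

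Within stimulated WT cells, the members did not follow the mitochondrial share in 1 direction. In CD4+ T cells Prdx1 was at 406 and 383 CPM in low-mitochondrial cells and at 144 and 144 CPM in cells of 10% or more, Sod1 at 79.1 and 86.7 against 38.8 and 40.2 CPM, and Gpx4 at 318 and 375 against 107 and 128 CPM. Gclc had the opposite order, at 23.5 and 19.3 against 45.5 and 47.9 CPM, and Txnrd1 was at 62.0 and 58.3 against 60.4 and 58.7 CPM. These are separately scaled levels of cells from the same libraries, given as a description.

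Stimulated SDHA-KO CD8 cells held a median of 30662 and 29912 UMIs against 13151.5 and 13265 in WT, so UMIs of each member per cell were also compared. In CD8+ T cells Txnrd1 averaged 2.10 UMIs per cell in stimulated WT and 5.79 in SDHA-KO (2.76-fold), Prdx1 7.98 and 16.8 (2.10-fold), and Srxn1 0.0262 and 0.191 (7.27-fold). Hmox1 averaged 0.168 and 0.174 UMIs per CD8 cell, with overlapping libraries. For CD4+ T cells the ratio was 1.57 for Sod1, 1.35 for Prdx1, 1.22 for Txnrd1 and 0.339 for Hmox1, and it was below 1 for Sod2 (0.860), Prdx3 (0.953), Gclc (0.759) and Gclm (0.948). These are ratios of means, not adjusted for total UMIs. Stimulated CD4 sums held 25283357 and 29087409 UMIs from 859 and 967 WT cells. SDHA-KO CD4 sums held 28163818 and 34087903 UMIs from 1137 and 1284 cells, a lower mean per cell. The median per CD4 cell went the other way, at 23669 and 24651.5 UMIs in SDHA-KO against 14753 and 14464 in WT. The CD8 sums held 20917753 and 22311319 UMIs from 844 and 834 WT cells, and 18892968 and 14582240 from 511 and 396 SDHA-KO cells. The mean per CD8 cell was thus higher in SDHA-KO, but by a smaller ratio than the median.

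Whether the genotype difference itself changed with stimulation was tested as an interaction. In CD4+ T cells it was called positive for 3 members (Sod1 0.76, Prdx1 0.58 and Txnrd1 0.41) and negative for 1 (Hmox1 −2.64), beside 10.9% of all genes called positive and 10.5% negative. Among CD8+ T cells it was called positive for 5 members (Txnrd1 1.05, Prdx1 0.63, Prdx3 0.59, Gpx4 0.40 and Sod2 0.38) and negative for 0, beside 13.5% and 10.2%. In low-mitochondrial cells only Hmox1 in CD4+ (−2.94, adjusted p = 0.00949) and Txnrd1 in CD8+ T cells (0.81, adjusted p = 0.00601) were called. In strict classes the calls were Sod1 (0.83), Prdx1 (0.53) and Txnrd1 (0.47) in CD4+ and Sod1 (0.72) and Prdx1 (0.46) in CD8+ T cells, so that Txnrd1 in CD8+ (0.39, adjusted p = 0.111) and Hmox1 in CD4+ T cells (−2.30, adjusted p = 0.0650) were not called. The unstimulated SDHA-KO counts of Hmox1 described above enter its negative interaction in CD4+ T cells, which was lost without unstimulated SDHA-KO replicate 1 (−2.16, adjusted p = 0.0520) or unstimulated WT replicate 1 (−2.18, 0.0627). Txnrd1 in CD4+ was lost without 7 of the 8 libraries (0.32 to 0.50), Sod2 in CD8+ without 7 (0.31 to 0.39) and Gpx4 in CD8+ T cells without 6 (0.27 to 0.40). Prdx3 in CD8+ T cells was lost without unstimulated SDHA-KO replicate 2 (0.49), unstimulated WT replicate 2 (0.35) or stimulated WT replicate 1 (0.55) or 2 (0.59).

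The difference between the classes in the stimulated genotype effect was tested in a fit with the library as a block. The effect was larger in CD8+ than in CD4+ T cells for Txnrd1 (by 0.51), Prdx3 (0.40), Sod2 (0.37) and Hmox1 (0.93, where both effects were below 0), and smaller for Sod1 (−0.41), that is 4 members called higher and 1 lower beside 11.9% and 10.4% of all genes. In strict classes only Prdx3 was called (0.36, adjusted p = 0.04997), and the Txnrd1 difference was −0.09 (adjusted p = 0.549). The Sod1 call was lost without stimulated WT replicate 2 (−0.30), and the Hmox1 call without stimulated SDHA-KO replicate 1 (0.73) or stimulated WT replicate 1 (0.78) or 2 (1.08). Between the classes within stimulated WT, Gclc (0.42), Txnrd1 (0.42) and Hmox1 (0.69) were higher in CD8+ T cells, 3 of 10 members beside 11% of all genes called higher and 12.5% lower. Without stimulated WT replicate 2, Gclc (0.35) and Hmox1 (0.54) were no longer called, and without stimulated WT replicate 1 (0.83) or in strict classes (0.64, adjusted p = 0.0729) Hmox1 was not. In unstimulated WT only Txnrd1 was higher in CD8+ T cells (0.41, adjusted p = 0.0208), 1 of the 8 members tested beside 11.5% and 10.8% of all genes, and it was lost without either unstimulated WT library (0.40 and 0.42). In strict classes Txnrd1 was not called there (0.35, adjusted p = 0.0883) and Gpx4 was (0.19, adjusted p = 0.0342).

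The comparison was repeated within each Subtype, the numbered clusters that the authors annotated as naive, central memory (Tcm), effector memory (Tem) or regulatory cells, where each of the 4 libraries of a state had at least 20 cells. In stimulated CD4+ T cells 8 subsets gave 69 tests of members, of which 11 were called higher and 5 lower in SDHA-KO, beside 9.46% and 10.9% of all gene tests. In stimulated CD8+ T cells 4 subsets gave 34 tests, of which 11 were called higher and 0 lower, beside 10.6% and 10.1%. In unstimulated cells 0 of 48 CD4 tests (1.02% and 1.90% of all gene tests called higher and lower) and 0 of 40 CD8 tests (0.322% and 1.22%) were called. Cells of 1 library in different subsets share that library, so subsets are not replicates.

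Txnrd1 was called higher in SDHA-KO in all 4 stimulated CD8 subsets tested, by 0.63 to 1.099. The subsets keep cells with a Trdc UMI, which were 59.1% and 56.1% of the whole stimulated SDHA-KO CD8 class. In the strict CD8 class described above the Txnrd1 difference was smaller, and strict cells were not compared by subset. In CD8 Tem2 it was at 87.4 and 87.6 CPM in WT and 193 and 182 CPM in SDHA-KO, in Tcm3 at 97.04 and 96.6 against 192 and 182 CPM, in Tcm4 at 63.6 and 53.6 against 122 and 126 CPM, and in Tcm2 at 80.6 and 76.3 against 115 and 134 CPM. Prdx1 was above 0 in all 4 (0.32 to 0.78) and called in 3. Srxn1 was called in CD8 Tem2 (2.40), at 0.642 and 1.14 CPM in WT and 4.51 and 5.12 CPM in SDHA-KO. In stimulated CD4 subsets Sod1 lay above 0 in 8 of 8 (0.26 to 0.79, called in 4), Prdx1 in 8 of 8 (0.16 to 0.65, called in 4) and Txnrd1 in 7 of 8 (−0.02 to 0.84, called in 3). Hmox1 lay below 0 in all 4 CD4 subsets where it was tested (−2.26 to −1.10) and was called in Tem2, where it was at 6.46 and 4.98 CPM in WT and 1.24 and 1.14 CPM in SDHA-KO, and in Tem3, at 6.81 and 4.97 against 2.29 and 1.30 CPM. Sod2 was called lower in CD4 Tem1 (−0.51) and Tem3 (−0.36), and Gpx4 in CD4 Tem5 (−0.42).

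**Figure D4:**
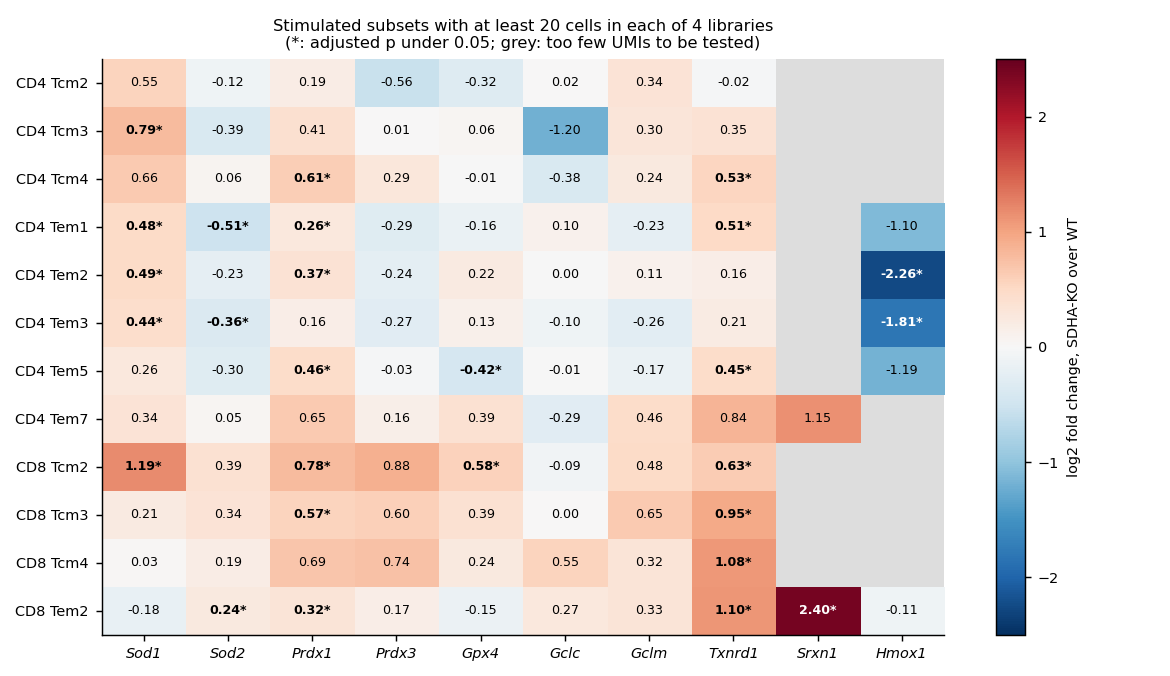
Heat map of the log2 fold change, stimulated SDHA-KO over stimulated WT, of the 10 genes in 8 CD4 and 4 CD8 subsets, with an asterisk where the adjusted p was under 0.05 and grey where a gene was not tested. The Txnrd1 values of the 4 CD8 subsets are all called, between 0.63 and 1.099, and the Hmox1 values of CD4 subsets all lie below 0. The subsets keep cells with a Trdc UMI.

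The wider pathway was read from a list of 67 genes for NRF2 and its regulators, glutathione, thioredoxin, peroxide removal, NADPH supply and quinone, haem and iron metabolism, of which 61 were tested in stimulated SDHA-KO against WT. In CD4+ T cells 24 were called higher and 12 lower (median 0.09, against −0.00 over all genes), beside 22.7% of all genes called higher and 20.5% lower. For CD8+ T cells 27 were called higher and 11 lower (0.24, against −0.01), beside 26.8% and 23.5%. In low-mitochondrial cells the counts were 10 higher and 18 lower in CD4+ (median −0.03, beside 16% and 16.7% of all genes) and 14 higher and 14 lower in CD8+ T cells (median 0.00, beside 18.4% and 17.0%). Without stimulation Gstt2 was called lower in SDHA-KO CD4+ T cells (−0.90) and 0 genes of the list were called in the CD8 class, while in strict CD8+ T cells 1 was called higher and 1 lower.

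The gene of NRF2 itself was called lower in stimulated SDHA-KO cells of both classes. Nfe2l2 was between 72.1 and 78.1 CPM in the 4 unstimulated CD4 sums and stood at 41.3 and 34.9 CPM in stimulated WT and 30.3 and 33.4 CPM in stimulated SDHA-KO CD4+ T cells (−0.26, adjusted p = 0.0442), and at 50.3 and 44.4 against 34.7 and 36.7 CPM in CD8+ T cells (−0.41, adjusted p = 0.00241). In low-mitochondrial cells the CD4 call of Nfe2l2 was lost (−0.24, adjusted p = 0.0867) and the CD8 call held (−0.48). Bach1 was called lower in SDHA-KO in both classes (−1.05 and −0.93), also in low-mitochondrial cells (−0.86 and −0.83), at 10.5 and 10.0 against 4.75 and 5.17 CPM in CD4+ and at 10.98 and 10.0 against 4.56 and 6.56 CPM in CD8+ T cells. Keap1 was called higher only in the CD8 class (0.26, adjusted p = 0.0368, against 0.21 with adjusted p = 0.128 in CD4+), and in low-mitochondrial cells its differences were −0.04 and 0.04. Bach2, a related repressor that restrains effector differentiation, was called higher in CD4+ T cells (0.55) and was at 0.02 in CD8+ T cells.

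Among targets outside the 10, Slc7a11, the cystine importer that feeds glutathione synthesis, was called lower in SDHA-KO in both classes. It was at 2.995 and 1.85 CPM in WT and 0.130 and 0.297 CPM in SDHA-KO CD4+ T cells (−3.42, with 4 and 11 UMIs in SDHA-KO) and at 3.36 and 3.11 against 0.893 and 0.309 CPM in CD8+ T cells (−2.35), and remained called in low-mitochondrial cells (−3.36 and −2.22). Txnip, an inhibitor of thioredoxin, was called lower as well (−0.85 and −1.11, and −0.995 and −1.52 in low-mitochondrial cells). Nqo1, the quinone reductase, was counted 4 and 3 times in WT and 25 and 16 times in SDHA-KO CD4 sums, too few to be tested, and was not called in CD8+ T cells (1.31, adjusted p = 0.0599). Apart from these, the largest called rises common to both classes were those of Gsto1 (1.01 in CD4+ and 1.09 in CD8+), Gpx1 (0.81 and 1.02), Selenow (1.08 and 0.67), Fth1 (0.91 and 0.84) and Glrx5 (0.64 and 0.99), and all 5 were also called higher in low-mitochondrial cells of both classes. Apart from Slc7a11, Bach1, Txnip and Nfe2l2, the largest falls called in both classes were those of Idh1 (−2.32 and −1.07), Chac1 (−1.97 and −0.93), Blvrb (−0.52 and −0.73), Prdx4 (−0.26 and −0.67) and Sesn1 (−0.25 and −0.44), of which Sesn1 was not called in low-mitochondrial cells (0.02 and −0.22).

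The counts by role stand beside the same shares of all genes, 22.7% higher and 20.5% lower in CD4+ and 26.8% and 23.5% in CD8+ T cells, and many are close to them. Thioredoxin, peroxiredoxin and glutaredoxin genes had 8 of 16 called higher and 2 lower in CD4+ and 10 higher and 2 lower in CD8+ T cells, with medians of 0.26 and 0.42. In low-mitochondrial cells the balance turned in CD4+ (3 higher and 6 lower, median −0.047), and the CD8 counts were 5 higher and 2 lower (0.096). Quinone, haem and iron genes had 5 of 9 called higher in each class, with 1 lower in CD4+ and 2 lower in CD8+ T cells. The genes of NADPH supply had 2 of 8 higher and 2 lower in CD4+ (median −0.19) and 4 of 9 higher and 1 lower in CD8+ T cells (0.21). Sensors and regulators had 1 of 9 higher and 3 lower in CD4+ and 3 of 9 higher and 2 lower in CD8+ T cells, glutathione genes 6 of 14 higher and 3 lower and 5 of 13 higher and 3 lower, and peroxide and superoxide removal 2 of 5 higher and 1 lower and 0 of 5 higher and 1 lower. In low-mitochondrial cells the NADPH group had 0 of 8 higher and 5 lower in CD4+ (−0.42) and 1 of 8 higher and 3 lower in CD8+ T cells (−0.20), the quinone, haem and iron group 2 of 9 higher and 1 lower (−0.014) and 3 of 9 higher and 2 lower (0.33), and the glutathione group 3 of 14 higher and 4 lower and 4 of 13 higher and 5 lower. Sensors and regulators there had 1 of 9 higher and 2 lower in each class. Strict CD4+ T cells differed from all CD4+ T cells only for sensors and regulators (2 lower) and NADPH supply (3 lower). In strict CD8+ T cells sensors and regulators had 1 of 9 higher and 3 lower (median −0.17). Glutathione genes there had 6 of 12 higher and 2 lower (0.24), and peroxide and superoxide removal 1 of 5 higher and 0 lower. The thioredoxin group had 12 of 16 higher and 3 lower, the NADPH group 1 of 7 and 2, and the quinone group 6 of 7 and 1.

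**Figure D5:**
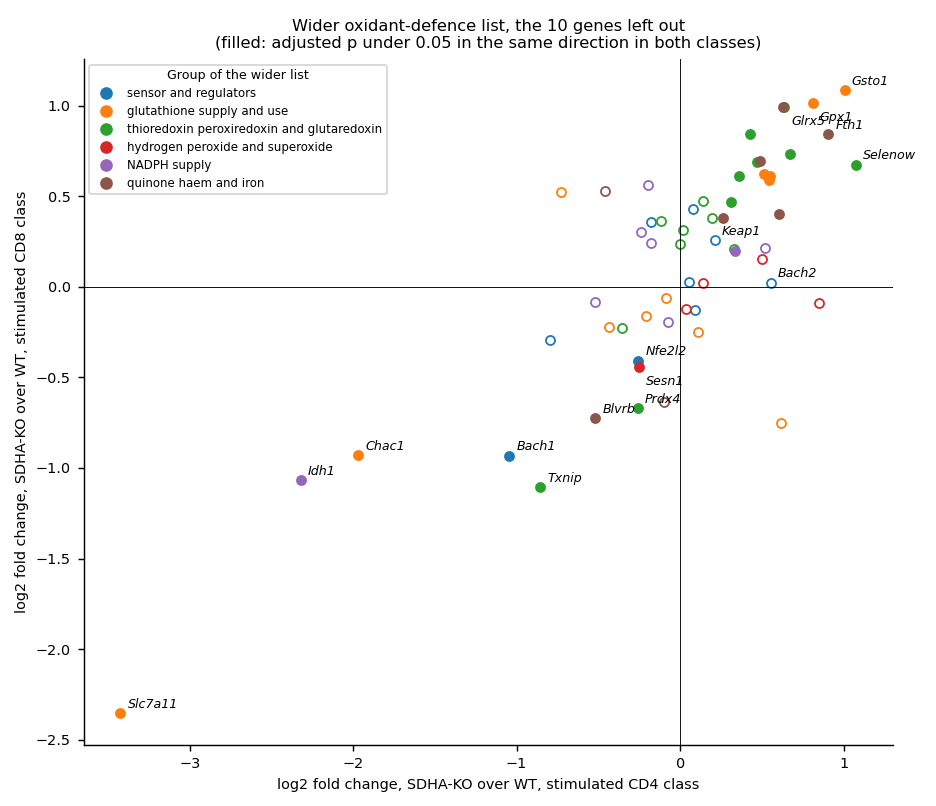
Log2 fold change, stimulated SDHA-KO over stimulated WT, of the wider pathway genes in CD4+ (horizontal axis) and CD8+ T cells (vertical axis), coloured by role and filled where called in the same direction in both classes. Slc7a11 (−3.42 and −2.35) and Idh1 (−2.32 and −1.07) lie lowest among the called genes, and Gsto1 (1.01 and 1.09) is among the highest.

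Across the 16 sums of library and class, the genes of at least 20 CPM whose log2 CPM followed that of Srxn1 most closely among 5725 genes were Ergic3 (Pearson r = 0.974), Clptm1 (0.969) and Ube2v1 (0.968). The 16 points share libraries between the classes and differ mainly between unstimulated and stimulated states, where Srxn1 goes from near 0 to several UMIs, so these values are a description.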

How the data were processed

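Pan T cells were profiled by 10x 3′ single-cell RNA-seq. Per the labels and the study's methods, the authors used bcl2fastq and Cell Ranger with mm10 and merged libraries in Seurat; cells with too many detected genes and clusters without Cd3 transcripts were removed, and CD4, CD8 and Subtype names were given to clusters. The deposited values were raw UMI counts per gene and cell, and the deposited percent of UMIs on mitochondrial genes per cell. Strand use in counting is not given in the sources used here, and doublets were not called again. Prdx1 and Gpx4 have 1 and 2 annotated pseudogenes, of which 0 were in the counts, so reads shared with them are uncertain.

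UMI counts were summed per library within each class, Subtype and cell set, and tested with edgeR 4.0.16 in R 4.3.3 (TMM, filterByExpr with a minimum count of 10 and total of 15, glmQLFit and glmQLFTest, 4 groups of 2 libraries, Benjamini-Hochberg over all genes tested). Class comparisons had the library as a block. The script was tested on simulated data. DESeq2 1.42.0, limma 3.58.1 on mean log-normalized values (10000 UMIs per cell, natural log), library totals alone, no expression filter, thinned counts, a replicate block, other cell sets and leaving out each library were alternatives. The members and lists were chosen with earlier results of these data known. Named genes were the members, Nfe2l2, Keap1, Bach1, Bach2, Nqo1, Slc7a11, Txnip and up to 5 others per direction of the wider list with the largest mean change among those called alike in both classes. Deviations of same-numbered libraries from their group means correlated between −0.0819 and 0.0598 over 12 pairs, so the numbers were not treated as pairing. Promoter windows were RefSeq's for GRCm38.p6.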

Additional observations from a re-analysis of the deposited data

Results flagged for a closer look

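By the interaction test of edgeR, the genotype effect differed between stimulated and unstimulated cells for 4 members in CD4+ and 5 in CD8+ T cells. In CD4+ T cells these were Sod1 (0.76, SE 0.136, adjusted p = 0.00307), Prdx1 (0.58, SE 0.110, 0.00416), Txnrd1 (0.41, SE 0.128, 0.0407) and Hmox1 (−2.64, SE 0.618, 0.0119). In CD8+ T cells they were Txnrd1 (1.05, SE 0.139, 0.000608), Prdx1 (0.63, SE 0.0989, 0.00146), Prdx3 (0.59, SE 0.167, 0.0257), Sod2 (0.38, SE 0.116, 0.0355) and Gpx4 (0.40, SE 0.130, 0.0474).

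The stimulated genotype effect also differed between CD8+ and CD4+ T cells for Txnrd1 (0.51, SE 0.0686, adjusted p = 0.00229), Sod2 (0.37, SE 0.0626, 0.00542), Prdx3 (0.40, SE 0.0780, 0.00959), Sod1 (−0.41, SE 0.0801, 0.00984) and Hmox1 (0.93, SE 0.267, 0.0417). The Trdc shares of 59.1% and 56.1% in the stimulated SDHA-KO CD8 class stand beside the Txnrd1 difference, which was −0.09 in strict classes.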

How the results depend on the processing

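Members called between stimulated SDHA-KO and WT numbered 6 in CD4+ and 7 in CD8+ T cells, and under other settings 10 with limma and 2 in cells of 10% or more mitochondrial UMIs in CD4+, and 4 in such cells and 4 with thinned counts in CD8+ T cells. Srxn1 and Hmox1 were not tested in CD4+ T cells of 10% or more mitochondrial UMIs. Leaving out each library gave 4 to 6 in CD4+ and 5 to 8 in CD8+ T cells. Leaving out each stimulated library within low-mitochondrial cells, chosen after seeing the data, gave 3 to 5 and 2 to 3. The response of WT CD8+ T cells had 5 members called with thinned counts. Leaving out each library gave 7 to 8 and 8 to 9 for the WT response and 7 to 8 and 9 to 10 for the SDHA-KO response in CD4+ and CD8+ T cells, and 0 throughout between unstimulated genotypes.

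Interactions called in CD4+ T cells numbered 1 in low-mitochondrial cells, 8 with limma and 2 to 4 without each library. In CD8+ T cells they numbered 1 in low-mitochondrial cells, 2 with library totals alone, 2 in strict classes, 2 with thinned counts, 3 with the replicate block and 2 to 4 without each library. The replicate block also lost the CD4 call of Srxn1 (adjusted p = 0.0565), although the numbers were not treated as pairing. Differences between the classes in the genotype effect numbered 0 in cells of 10% or more mitochondrial UMIs, 3 in low-mitochondrial cells, 1 in strict classes and 3 to 7 without each library. Class differences in stimulated WT numbered 1 with DESeq2, 1 in cells of 10% or more mitochondrial UMIs, 0 with limma and 1 to 3 without each library, and in unstimulated WT 0 with DESeq2, limma and thinned counts, 2 with library totals alone (both lower in CD8+ T cells, where the 1 reported was higher) and 0 to 1 without each library. Calls by subset numbered 27 as reported, 16 with DESeq2 and 17 in low-mitochondrial cells. With DESeq2 the 69 CD4 and 34 CD8 tests of stimulated subsets stood beside 7992 of 78495 and 3998 of 39226 gene tests called. In low-mitochondrial cells fewer subsets were tested. There 4 stimulated CD4 subsets gave 36 tests and 1 stimulated CD8 subset gave 10, beside 11273 of 43777 and 3625 of 11141 gene tests called. Except by subset, the share of all genes called under each setting is not given here. A general change in calling therefore cannot be told from a change in the members. The cause of these changes was not tested.

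Some values changed sign. With limma these were Sod2 in stimulated SDHA-KO against WT CD4+ T cells (0.094) and the stimulation response of Gclc in WT (0.10) and SDHA-KO (0.025) CD4+ T cells. In cells of 10% or more mitochondrial UMIs Gpx4 was at −0.11 in CD4+ and −0.34 in CD8+ T cells, and Sod2 was at 0.01 in CD4+ T cells. In low-mitochondrial cells Gpx4 was at −0.043 in CD4+ and −0.24 in CD8+ T cells and its CD8 interaction at −0.048. Low-mitochondrial cells without 1 stimulated library gave Gpx4 −0.16 in CD4+ (without SDHA-KO or WT replicate 1) and −0.34 in CD8+ (without SDHA-KO replicate 1), and in CD8+ T cells Sod1 −0.043, Sod2 −0.027 and Gclm −0.014 and −0.020. Strict classes gave the Gclc response in SDHA-KO CD8+ T cells as −0.16 and the class difference of the Txnrd1 effect as −0.095. Of the planned values of single genes, 1439 kept their side of the threshold, 156 lost the call, 43 gained it and 18 moved. Another 9 changed sign where the reported or the other value was called. Sign changes where neither was called, as of Gpx4 in CD8+ T cells of 10% or more mitochondrial UMIs, are not among these 9.

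With 2 libraries per group the spread rests on a fit across genes. Srxn1, Hmox1 and Nqo1 had few UMIs.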

Other observations

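Of the 9 sensors and regulators of the NRF2 system tested for the response to stimulation in WT cells, 2 were called higher and 5 lower in CD4+ (median log2 fold change −0.55) and 1 higher and 5 lower in CD8+ T cells (−0.47). Over all genes 36.2% were called higher and 30.1% lower in CD4+ and 35.5% and 30.3% in CD8+ T cells, with medians of 0.08 and 0.09, and no test compared the group with other genes. The 14 and 13 glutathione genes tested had 10 called higher and 3 lower in WT CD4+ (median 0.87) and 10 higher and 2 lower in WT CD8+ T cells (0.86). Over the 61 genes of the wider list tested, 31 were called higher and 18 lower in WT CD4+ T cells (median 0.31) and 25 higher and 19 lower in WT CD8+ T cells (0.24).

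Fth1 and Selenow, both called higher in stimulated SDHA-KO than in stimulated WT, were nearer to their unstimulated levels in stimulated SDHA-KO CD4+ T cells. Fth1, the ferritin heavy chain, was at 1036 and 1049 CPM in unstimulated WT, 965 and 929 CPM in unstimulated SDHA-KO, 467 and 474 CPM in stimulated WT and 837 and 927 CPM in stimulated SDHA-KO CD4+ T cells. Selenow, a small selenoprotein, was at 450.3 and 439, 412 and 379, 169.6 and 196, and 402 and 368 CPM in the same order.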
